A study of Homo sapiens with 8 samples.

Results

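The 9 genes of MHC class I antigen presentation were followed in AML-OCI3, an established line of human acute myeloid leukaemia cells, by RNA-seq of 8 libraries. They were taken by symbol, HLA-B, HLA-C, HLA-E, HLA-F, B2M, TAP1, TAP2, TAPBP and PSMB9, and these 9 are among 24077 genes listed in both the 24 h and the 48 h table. All 9 passed the filter on low counts. The cultures received 40 nM JIB-04, an inhibitor of JmjC-domain histone demethylases, or DMSO, its vehicle, and were collected at 48 h or 24 h. There were 2 libraries each for JIB-04 at 48 h, DMSO at 48 h, JIB-04 at 24 h and DMSO at 24 h. By its title the study concerned JIB-04, ferroptosis and the response of leukaemia cells to venetoclax, but no library here received venetoclax. All groups are the same single line, no genotype or untreated group is among them, and the labels do not say whether replicates came from separate cultures, so the p-values speak of the spread among these 8 libraries, some or all of which may be technical.

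MHC class I molecules display peptides from inside the cell to CD8 T cells and NK cells. A heavy chain (HLA-B, HLA-C, the less variable HLA-E and HLA-F) pairs with beta-2-microglobulin, encoded by B2M. Peptides are cut by the proteasome, of which PSMB9 is an interferon-inducible catalytic subunit, carried into the endoplasmic reticulum by the transporter TAP1 and TAP2, and loaded with the help of tapasin, encoded by TAPBP. Interferons raise these genes through STAT and IRF factors, and NLRC5 is the transactivator best known for class I promoters. Leukaemic cells that carry less class I are known to be seen less well by T cells.

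Library totals lay between 18783093 and 22193377 counts, so 1 count was worth 0.0451 to 0.0532 CPM before scaling. Of 10 myeloid markers 9 exceeded 1 CPM, and KIT was not among the genes in both tables. No T or NK, B, erythroid or epithelial marker exceeded 1 CPM, and COL1A2 was the one fibroblast marker above it. In 3 of the 4 groups the gap between replicates followed GC content. Over 5750 well expressed genes (genes do not count as replicates), Spearman's rho between GC content and the difference of replicate 1 minus replicate 2 was 0.863 for JIB-04 at 48 h, 0.0959 for DMSO at 48 h, 0.898 for JIB-04 at 24 h and -0.814 for DMSO at 24 h. Tests are therefore given without a GC correction and then, as a second fit, with the GC trend of every library removed.

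The members sit in 2 places of the genome. B2M lies at chr15:44711487-44718877 on the plus strand (hg38, GENCODE 29) and the other 8 lie in the MHC region of chromosome 6. TAP1 (chr6:32845209-32853978, minus strand) and PSMB9 (chr6:32844136-32859585, plus strand) are neighbours read in opposite directions. The annotated PSMB9 gene spans TAP1, and the annotated HLA-B gene (chr6:31269491-31357188, minus strand) runs into HLA-C (chr6:31268749-31272130, minus strand). HLA-F overlaps an antisense gene. Reads can also match several class I heavy chains, RSEM shares such reads out by estimate, and neither the strand setting of the counting nor the HLA type of the line was given in any source used here. The split of counts among HLA-B, HLA-C and their relatives, and between PSMB9 and TAP1, is uncertain for these reasons.

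The stretches before the start sites are shown for the heavy chains HLA-B and HLA-C and for B2M, whose products pair with each other, and for the opposed neighbours TAP1 and PSMB9. They come from the RefSeq windows of GRCh38.p14 (250 bases before to 50 after a start), reference sequence and not that of the line, cut to the bases that GENCODE 29 does not annotate as untranslated region. HLA-B is chr6:31357189-31357429 (minus), HLA-C chr6:31272106-31272342 (minus), B2M chr15:44711267-44711486 (plus), TAP1 chr6:32853705-32853816 (minus) and PSMB9 chr6:32853979-32854160 (plus). Capitals mark matches, on either strand, to GAAA, any 2 bases and GAAA (the core of an interferon-stimulated response element), GGGA, any base, T, any 2 bases and CC (NF-kappaB), TGACG (the core of a CRE), CCAAT and GGGCGG (a GC box), and overlapping matches run together.
HLA-B: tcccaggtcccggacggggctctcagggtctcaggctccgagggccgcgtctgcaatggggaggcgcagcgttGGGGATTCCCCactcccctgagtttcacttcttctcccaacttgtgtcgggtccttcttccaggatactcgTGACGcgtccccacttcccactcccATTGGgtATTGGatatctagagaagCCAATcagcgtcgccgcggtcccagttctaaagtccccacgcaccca
HLA-C: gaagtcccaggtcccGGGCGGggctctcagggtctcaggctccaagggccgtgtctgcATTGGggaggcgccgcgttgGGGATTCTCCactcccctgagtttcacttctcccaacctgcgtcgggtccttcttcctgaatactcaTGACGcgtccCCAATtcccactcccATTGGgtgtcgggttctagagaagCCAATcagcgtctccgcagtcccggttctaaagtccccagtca
B2M: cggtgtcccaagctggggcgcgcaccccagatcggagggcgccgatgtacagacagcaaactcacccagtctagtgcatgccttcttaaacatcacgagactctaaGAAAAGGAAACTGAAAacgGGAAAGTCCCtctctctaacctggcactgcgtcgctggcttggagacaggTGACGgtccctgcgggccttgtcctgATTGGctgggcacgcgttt
TAP1: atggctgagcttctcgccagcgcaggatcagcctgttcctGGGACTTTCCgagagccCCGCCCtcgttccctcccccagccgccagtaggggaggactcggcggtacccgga
PSMB9: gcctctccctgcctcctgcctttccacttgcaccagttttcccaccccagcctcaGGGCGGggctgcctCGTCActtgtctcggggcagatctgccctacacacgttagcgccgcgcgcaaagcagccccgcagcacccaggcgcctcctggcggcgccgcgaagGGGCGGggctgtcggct

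HLA-B and HLA-C each hold an NF-kappaB match, a CRE core and several CCAAT boxes, and in HLA-B the NF-kappaB letters match on both strands. HLA-C also holds a GC box. Neither matches the response element core as spelled here, and looser spellings of it were not searched. B2M holds 2 overlapping response element cores followed by an NF-kappaB match, a CRE core and a CCAAT box. TAP1 holds an NF-kappaB match and a GC box, and PSMB9 a CRE core and 2 GC boxes. Among 35116 RefSeq windows taken at full length without the cut, 3.02% hold the response element core and 4.46% the NF-kappaB letters. Of the same windows 21.2% hold the CRE core, 32% CCAAT and 42.6% the GC box. The printed parts are shorter, from 112 bases (TAP1) to 241 bases (HLA-B), so these shares are not for like lengths. The part of the TAP2 window left after the same cut (167 bases) holds none of these letters, nor does that of HLA-F (95 bases). A match is a run of letters and not a bound site.

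Per transcript length, B2M was the most abundant member and HLA-F the least. Median TPM over the 8 libraries was 767 for B2M, 274 for HLA-B, 187 for HLA-E, 50.2 for TAP2, 37.4 for HLA-C, 23.3 for PSMB9, 17.6 for TAPBP and 11.7 for TAP1. HLA-F lay between 0.64 and 3.35 TPM, from 8 to 36 counts a library. B2M (636 to 985 TPM) did not overlap HLA-B (194 to 396 TPM), which overlapped HLA-E (134 to 221 TPM) across libraries but exceeded it within each of the 8. By CPM, which is not per length, HLA-E exceeded HLA-B within each of the 8. TAP2 (44.2 to 66.8 TPM) overlapped HLA-C (29.1 to 52.6 TPM), and TAP2 was the higher in 7 of 8 libraries. HLA-C exceeded PSMB9 (19.5 to 32.5 TPM) within all 8, PSMB9 exceeded TAPBP (14.7 to 27.7 TPM) in 7 of 8, and TAPBP did not overlap TAP1 (9.0 to 13.5 TPM).

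**Figure D1:**
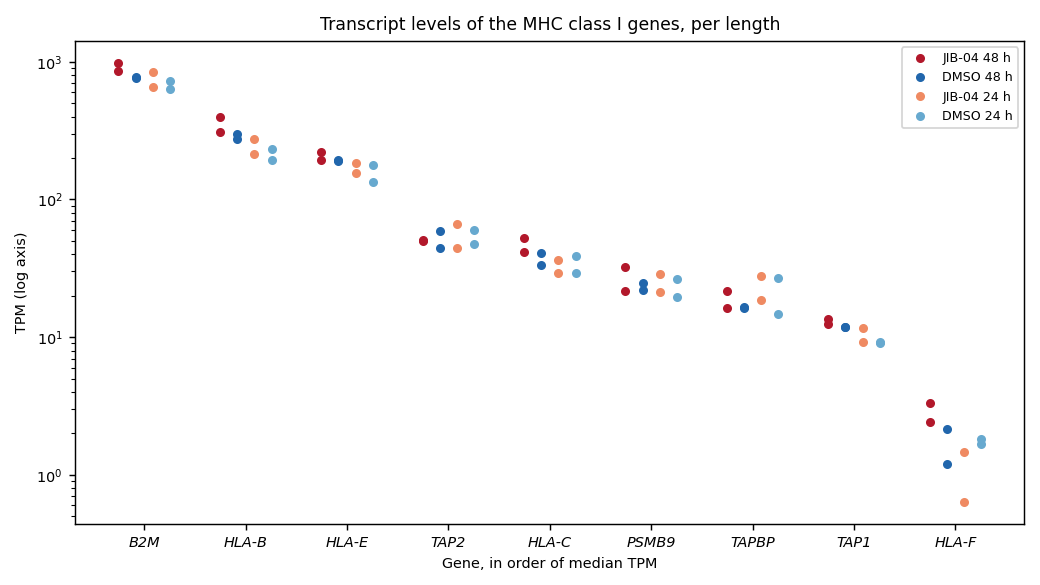
TPM of the 9 genes in each of the 8 libraries on a log axis, genes in order of their median, with 2 points per group. B2M stands above the heavy chains in every library, HLA-F lies below 4 TPM, and TAP2 stands 3.67 to 6.62 times above TAP1.

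The partners of a complex were not equally abundant as transcripts. TAP2 TPM divided by TAP1 TPM was 3.67 and 4.05 in JIB-04 libraries at 48 h, 4.93 and 3.71 in DMSO libraries at 48 h, 5.78 and 4.87 in JIB-04 libraries at 24 h and 5.18 and 6.62 in DMSO libraries at 24 h. Within each treatment the ratio was thus lower at 48 h than at 24 h without overlap. TPM can part replicates that CPM does not. In JIB-04 libraries at 24 h TAP2 had 66.8 and 44.7 TPM but 131 and 122 CPM. The JIB-04 libraries at 48 h also lay below all 4 libraries of 24 h, while a DMSO library at 48 h (4.93) exceeded a JIB-04 library at 24 h (4.87). B2M TPM was 1.28 to 2.12 times the summed TPM of HLA-B, HLA-C, HLA-E and HLA-F. That ratio differed between replicates as much as between groups, at 1.28 and 1.80 for JIB-04 at 48 h and 1.34 and 2.12 for JIB-04 at 24 h. B2M has a GC content of 40.6% and the heavy chains 54.8% to 62.7%. HLA-B made up 51.6% to 58.8% of the summed heavy-chain TPM and HLA-E 32.9% to 39.5%. PSMB9 TPM was 0.106 to 0.187 of that of PSMB6, the constitutive subunit it replaces.

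The clearest pattern was between the times. HLA-B, HLA-E, B2M and TAP1 were higher in all 4 libraries of 48 h than in all 4 libraries of 24 h, whichever treatment they had. TAP2, TAPBP and PSMB9 overlapped between the times. Averaged over both treatments, a contrast chosen after seeing the data, HLA-B rose 1.59-fold (95% interval 1.37 to 1.84) at 48 h in edgeR's quasi-likelihood test (adjusted p = 0.0172). It was 1 of 9 members past an adjusted p of 0.05, against 1.38% of all tested genes (211 of 15248, 0.938% higher). Unadjusted p lay under 0.05 for 6 of 9, against 14.3%. After removal of the GC trend 6 of 9 rose, against 18.2% of tested genes (8.26% higher). These were HLA-B, HLA-C, HLA-E, HLA-F, B2M and TAP1. B cell markers lay near the floor, with 0 of 5 above 1 CPM and MS4A1 not in both tables. They summed to 1.18 to 1.25 CPM in JIB-04 libraries at 48 h, 0.977 to 1.09 CPM in DMSO libraries at 48 h, 0.710 to 0.829 CPM in JIB-04 libraries at 24 h and 0.644 to 0.952 CPM in DMSO libraries at 24 h. The lowest sum of 48 h (0.977 CPM) was above the highest of 24 h (0.952 CPM) by less than 1 count is worth. The part of these markers in the result was not tested. Any handling that differed between the collection times cannot be told apart from time itself, and in bulk RNA more cells expressing a gene and more RNA per cell cannot be told apart.

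**Figure D2:**
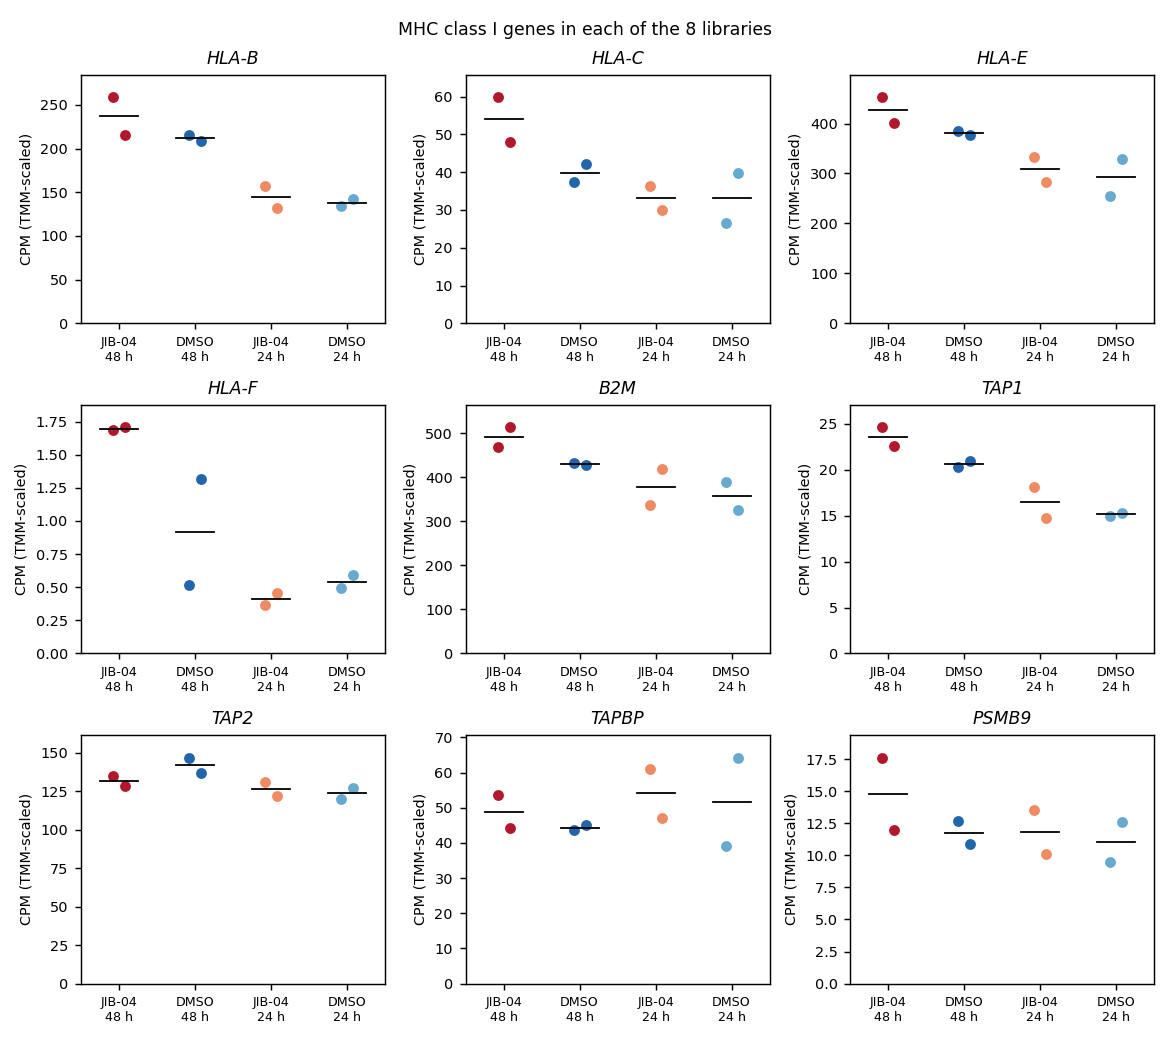
TMM-scaled CPM of each member in each library, from an axis at 0, with 2 points per group and a line at their mean. In HLA-B, HLA-E, B2M and TAP1 the 4 points of 48 h stand above the 4 points of 24 h. In HLA-C, HLA-F, TAP2, TAPBP and PSMB9 the times overlap.

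HLA-B, a classical heavy chain, had 259 and 216 CPM in JIB-04 libraries at 48 h, against 157 and 132 CPM in JIB-04 libraries at 24 h. DMSO libraries had 216 and 208 CPM at 48 h, against 135 and 142 CPM at 24 h. Every 48 h library thus lay above every 24 h library. The log2 change of 48 h against 24 h was 0.72 ± 0.13 in JIB-04 cultures (SE; adjusted p = 0.125, edgeR) and 0.62 ± 0.13 in DMSO cultures (adjusted p = 0.117). Those comparisons share no library. Its averaged call did not hold when JIB-04 48 h replicate 1, JIB-04 24 h replicate 2 or either DMSO 48 h library was left out (adjusted p 0.0517 to 0.133), and the log2 change lay between 0.58 and 0.73 in the 8 fits that each left out a library.

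HLA-C, also a classical heavy chain and the member of highest GC content (62.7%), had 59.9 and 48.1 CPM in JIB-04 libraries at 48 h, against 36.4 and 30.0 CPM in JIB-04 libraries at 24 h. In DMSO libraries it had 37.4 and 42.1 CPM at 48 h, against 26.6 and 39.9 CPM at 24 h. The groups were apart in JIB-04 cultures and overlapped in DMSO cultures, where the 24 h replicates differed by 0.58 on the log2 scale before the GC trend was removed. Log2 changes were 0.70 ± 0.21 in JIB-04 cultures (adjusted p = 0.386) and 0.26 ± 0.21 in DMSO cultures (adjusted p = 0.711). With the GC trend removed they were 0.57 ± 0.08 (adjusted p = 0.00595) and 0.40 ± 0.09 (adjusted p = 0.0163).

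HLA-E, which presents leader peptides of other class I chains to NK cell receptors, had 453 and 400 CPM in JIB-04 libraries at 48 h, against 334 and 283 CPM in JIB-04 libraries at 24 h. In DMSO libraries it had 385 and 378 CPM at 48 h, against 256 and 330 CPM at 24 h. All 4 libraries of 48 h stood above all 4 of 24 h. The log2 changes were 0.47 ± 0.15 in JIB-04 cultures (adjusted p = 0.394) and 0.38 ± 0.15 in DMSO cultures (adjusted p = 0.348). Averaged over both treatments it missed the threshold (0.42 ± 0.10, adjusted p = 0.104) and passed without DMSO 24 h replicate 2 (adjusted p = 0.0412). After removal of the GC trend they were 0.40 ± 0.06 (adjusted p = 0.00689) and 0.41 ± 0.06 (adjusted p = 0.00338).

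HLA-F, a nonclassical heavy chain, was close to the floor of detection. It had 31 and 36 counts in JIB-04 libraries at 48 h, against 8 and 9 counts in JIB-04 libraries at 24 h. DMSO libraries had 10 and 29 counts at 48 h, against 10 and 13 counts at 24 h. The JIB-04 groups were apart and the DMSO groups overlapped. Its log2 changes were 2.03 ± 0.47 in JIB-04 cultures (adjusted p = 0.242) and 0.76 ± 0.48 in DMSO cultures (adjusted p = 0.598), with intervals of 0.94 to 3.11 and -0.33 to 1.85.

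B2M, the invariant light chain, had 470 and 514 CPM in JIB-04 libraries at 48 h, against 337 and 420 CPM in JIB-04 libraries at 24 h. In DMSO libraries it had 432 and 427 CPM at 48 h, against 390 and 327 CPM at 24 h. The lowest 48 h library was above the highest 24 h library, by 427 against 420 CPM. Log2 changes were 0.38 ± 0.14 in JIB-04 cultures (adjusted p = 0.484) and 0.26 ± 0.14 in DMSO cultures (adjusted p = 0.508). With the GC trend removed they were 0.44 ± 0.05 (adjusted p = 0.00193) and 0.20 ± 0.05 (adjusted p = 0.0380).

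Of the transporter genes, TAP1 was apart between the times in both treatments and TAP2 in DMSO cultures alone. TAP1 had 24.6 and 22.6 CPM in JIB-04 libraries at 48 h, against 18.1 and 14.8 CPM in JIB-04 libraries at 24 h. DMSO libraries had 20.3 and 21.0 CPM at 48 h, against 15.01 and 15.3 CPM at 24 h. TAP1 was thus higher in every 48 h library, with log2 changes of 0.52 ± 0.15 in JIB-04 cultures (adjusted p = 0.361) and 0.45 ± 0.15 in DMSO cultures (adjusted p = 0.272). TAP2 had 135 and 128 CPM in JIB-04 libraries at 48 h, against 131 and 122 CPM in JIB-04 libraries at 24 h. DMSO libraries had 147 and 137 CPM at 48 h, against 120 and 127 CPM at 24 h. The JIB-04 groups overlapped and the DMSO groups did not, and the log2 changes were 0.06 ± 0.11 (interval -0.19 to 0.30) and 0.20 ± 0.11 (interval -0.05 to 0.44). After removal of the GC trend TAP2 had 0.029 ± 0.07 (adjusted p = 0.847) and 0.16 ± 0.07 (adjusted p = 0.166). The difference between TAP1 and TAP2 was not tested.

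TAPBP, which bridges TAP and the empty heavy chain, had 53.5 and 44.1 CPM in JIB-04 libraries at 48 h, against 60.9 and 47.2 CPM in JIB-04 libraries at 24 h. In DMSO libraries it had 43.5 and 45.2 CPM at 48 h, against 39.0 and 64.3 CPM at 24 h. It was the member with negative log2 changes in both treatments, -0.15 ± 0.23 in JIB-04 cultures (adjusted p = 0.934) and -0.22 ± 0.23 in DMSO cultures (adjusted p = 0.786). PSMB9 had 17.6 and 11.9 CPM in JIB-04 libraries at 48 h, against 13.5 and 10.1 CPM in JIB-04 libraries at 24 h. DMSO libraries had 12.6 and 10.9 CPM at 48 h, against 9.46 and 12.6 CPM at 24 h. Both genes overlapped between the times. PSMB9's log2 changes were 0.32 ± 0.25 (interval -0.24 to 0.88) and 0.09 ± 0.25 (interval -0.47 to 0.66). In the GC-corrected fit TAPBP had -0.24 ± 0.10 in JIB-04 cultures (adjusted p = 0.215), where its libraries no longer overlapped, and -0.14 ± 0.10 in DMSO cultures (adjusted p = 0.416). PSMB9 had 0.30 ± 0.24 and 0.032 ± 0.25 in that fit (adjusted p = 0.528 and 0.953).

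Counted over the 9, the libraries of 48 h and 24 h did not overlap and were higher at 48 h in 6 members of JIB-04 cultures, against 16.6% of tested genes. In DMSO cultures this held for 5 members, against 25.9% of tested genes. Over both treatments together it held for 4, against 4.19% of tested genes. By edgeR 0 of 9 passed in JIB-04 cultures, against 0.203% of tested genes, and 6 had an unadjusted p under 0.05, against 8.57%. In DMSO cultures 0 of 9 passed, against 0.426%, and 3 had an unadjusted p under 0.05, against 12.2%. DESeq2 called HLA-B alone of the 9 in each treatment (adjusted p = 0.00160 in JIB-04 and 0.0117 in DMSO cultures), and limma-voom called 0 of the 9. Over all genes DESeq2 called 101 in JIB-04 and 227 in DMSO cultures, where edgeR called 31 and 65. The median log2 change of the 9 was 0.47 in JIB-04 cultures and 0.26 in DMSO cultures, beside 0.01 over all tested genes in each.

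Once the GC trend was removed, 6 of 9 rose in JIB-04 cultures (HLA-B, HLA-C, HLA-E, HLA-F, B2M and TAP1), against 6.87% of tested genes called and 3.32% called higher. In DMSO cultures 5 of 9 rose (the same without HLA-F), against 13.6% called and 6.51% called higher. HLA-B changed by 0.61 ± 0.10 in JIB-04 cultures (adjusted p = 0.00934) and 0.67 ± 0.10 in DMSO cultures (adjusted p = 0.00338), and TAP1 by 0.44 ± 0.11 (adjusted p = 0.0487) and 0.50 ± 0.11 (adjusted p = 0.0209). TAP1's call in JIB-04 cultures was lost when the replicate number was added as a block (adjusted p = 0.0784). HLA-F rose in JIB-04 cultures by 1.95 ± 0.49 (adjusted p = 0.0454) and had 0.83 ± 0.49 in DMSO cultures (adjusted p = 0.312). TAP2, TAPBP and PSMB9 did not pass in either treatment.

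The calls without the GC trend were not equally firm when a library was left out. Averaged over both treatments HLA-B, HLA-C, HLA-E, B2M and TAP1 passed in 8 of 8 such fits, with log2 changes of 0.55 to 0.74, 0.44 to 0.52, 0.36 to 0.45, 0.30 to 0.34 and 0.39 to 0.55. HLA-F passed in 4 of 8 and was lost without either JIB-04 48 h library, JIB-04 24 h replicate 1 or DMSO 48 h replicate 2 (adjusted p 0.0501 to 0.120). In JIB-04 cultures B2M passed in 8 of 8. HLA-C was lost there without JIB-04 48 h replicate 2 (adjusted p = 0.0512), HLA-E also without JIB-04 24 h replicate 2 (highest adjusted p 0.0550), and HLA-B without either JIB-04 48 h library or JIB-04 24 h replicate 1 (highest 0.0699). HLA-F was lost without any of the 4 JIB-04 libraries (highest 0.230), and TAP1 without any library but the DMSO 24 h pair (highest 0.237).

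In DMSO cultures, with the GC trend removed, HLA-B and HLA-E passed in 8 of 8 fits with a library left out. HLA-C and TAP1 were lost without either DMSO 48 h library or DMSO 24 h replicate 2 (highest adjusted p 0.138 and 0.137). B2M passed without either JIB-04 48 h library and was lost without any other (highest 0.219). TAPBP, which did not pass with all libraries, was called lower without DMSO 24 h replicate 1, both in DMSO cultures (adjusted p = 0.0283) and averaged over both treatments (adjusted p = 0.00484). In JIB-04 cultures it was called lower without either DMSO 24 h library (adjusted p 0.0463 and 0.0476).

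**Figure D3:**
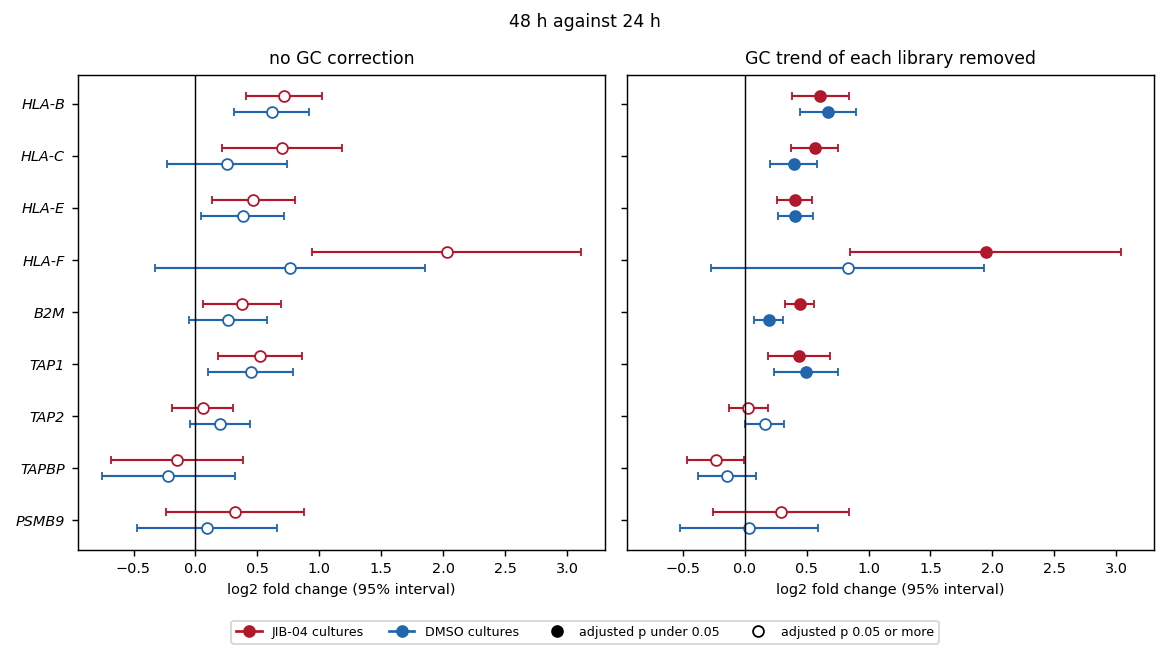
Log2 fold change of 48 h against 24 h for the 9 genes, with 95% intervals, in JIB-04 cultures (upper of each pair) and DMSO cultures (lower), without a GC correction on the left and with the GC trend removed on the right. Filled points have an adjusted p under 0.05, which holds for 0 points on the left and for 6 (JIB-04) and 5 (DMSO) on the right.

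The GC correction narrowed some replicate gaps and widened others. For HLA-C at 24 h the log2 gap of DMSO replicate 1 minus replicate 2 was -0.58 before and 0.18 after. For HLA-B in the same group it was -0.08 before and 0.38 after, so that the DMSO libraries at 24 h stood at 158 and 121 CPM once corrected. The JIB-04 gaps of HLA-B were 0.26 at 48 h and 0.26 at 24 h before, and -0.01 and -0.11 after. PSMB9, near the median GC content, kept gaps of 0.62 in JIB-04 libraries at 48 h and 0.50 in JIB-04 libraries at 24 h, against -0.54 in DMSO libraries at 24 h.

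**Figure D4:**
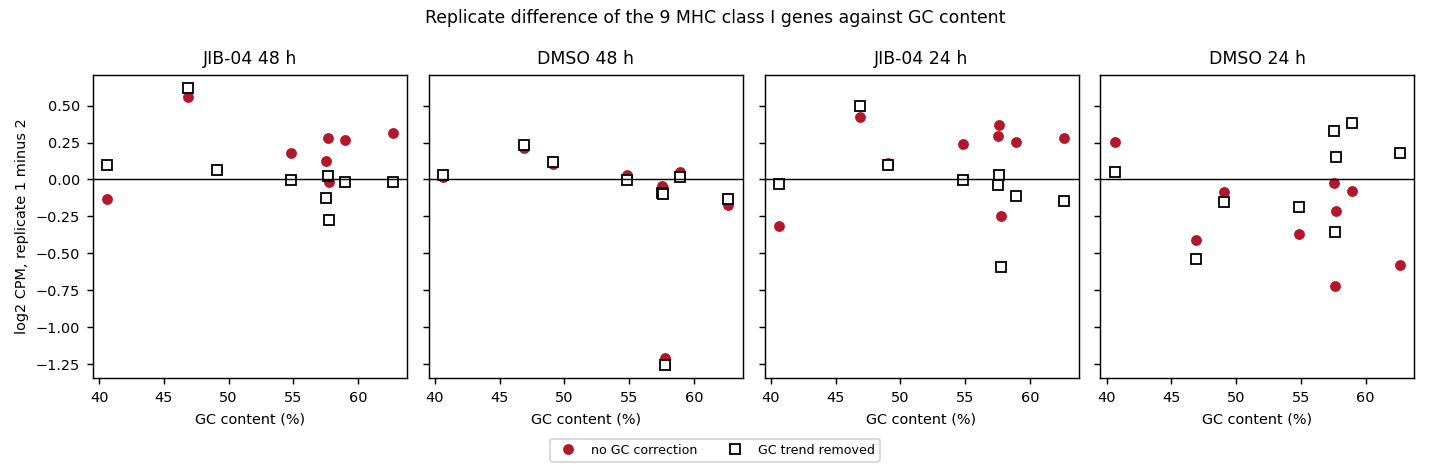
Difference of log2 CPM between replicate 1 and replicate 2 of each group against GC content for the 9 genes, before (filled circles) and after (open squares) the GC trend was removed. The outlying point of DMSO at 48 h is HLA-F, from 10 and 29 counts.

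JIB-04 against DMSO, the comparison of the study, moved no member past the threshold without a GC correction. At 48 h, 0 of 9 passed by edgeR, DESeq2 or limma-voom, against 0.387% of tested genes by edgeR (59 of 15248), and 0 had an unadjusted p under 0.05, against 9.69%. At 24 h, 0 of 9 passed by any of the 3 tools, against 0% of tested genes by edgeR, and 0 had an unadjusted p under 0.05, against 10.8%. The median log2 change of the 9 was 0.19 at 48 h and 0.07 at 24 h, beside 0.01 and 0.02 over all tested genes. These misses do not show that the levels were alike, so the intervals are given.

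At 48 h the libraries of JIB-04 stood above those of DMSO without overlap in HLA-B, HLA-C, HLA-E, HLA-F, B2M and TAP1, 6 of 9, against 25.8% of tested genes. TAP2 lay lower without overlap, 1 of 9, against 23.7%. Corrected for GC, 4 of 9 stood higher without overlap (HLA-C, HLA-E, HLA-F and B2M), against 26.9% of tested genes, and 0 lower, against 31.7%. Other measures separated the same libraries. Mitochondrial genes took 7.26% and 8.01% of counts with JIB-04 at 48 h, against 6.18% and 6.63% with DMSO. The myeloid markers, 9 of 9 above 1 CPM, summed to 576 to 649 CPM with JIB-04, against 460 to 486 CPM with DMSO, and the B cell markers to 1.18 to 1.25 CPM, against 0.977 to 1.09 CPM. Their part in the result was not tested. The JIB-04 effect on HLA-B was 0.16 (interval -0.14 to 0.47), on HLA-E 0.16 (-0.17 to 0.50), on TAP1 0.19 (-0.14 to 0.53) and on TAP2 -0.11 (-0.35 to 0.14). On HLA-F it was 0.87 (-0.11 to 1.85), on TAPBP 0.14 (-0.40 to 0.67) and on PSMB9 0.33 (-0.23 to 0.89). The HLA-F value was 0.36 without DMSO 48 h replicate 1 and 1.71 without DMSO 48 h replicate 2. In the GC-corrected fit the effect was 0.010 on HLA-B (-0.21 to 0.24), 0.12 on HLA-E (-0.021 to 0.26), 0.088 on TAP1 (-0.16 to 0.34) and -0.088 on TAP2 (-0.25 to 0.070). It was 0.76 on HLA-F (-0.21 to 1.72), 0.021 on TAPBP (-0.21 to 0.25) and 0.35 on PSMB9 (-0.20 to 0.90). Before that correction the gap was small for HLA-B, where the lower JIB-04 library and the higher DMSO library both round to 216 CPM.

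HLA-C and B2M came closest to a JIB-04 effect at 48 h, each in a different fit. HLA-C had 59.9 and 48.1 CPM with JIB-04 at 48 h, against 37.4 and 42.1 CPM with DMSO, a log2 change of 0.44 ± 0.21 (adjusted p = 0.560), and 0.16 ± 0.08 (adjusted p = 0.264) with the GC trend removed. In the authors' deposited table its log2 fold change was 0.43 with an unadjusted p of 0.00631 and an adjusted p of 0.115, the lowest of the 9. For B2M the log2 change was 0.19 ± 0.14 (adjusted p = 0.687), and with the GC trend removed it rose by 0.21 ± 0.05 (adjusted p = 0.0437), 1 of 9 against 8.01% of tested genes. That call was lost without either JIB-04 48 h library, either DMSO 48 h library or either JIB-04 24 h library (adjusted p 0.0642 to 0.244). It was also lost when the replicate number was added as a block (adjusted p = 0.0544).

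At 24 h no member was higher with JIB-04 without overlap, against 18.1% of tested genes, and HLA-F alone was lower, against 15.6%, on 8 and 9 counts with JIB-04 and 10 and 13 counts with DMSO. Log2 changes lay between -0.40 (HLA-F) and 0.12 (TAP1). The interval for HLA-B was -0.24 to 0.37, for B2M -0.24 to 0.39 and for HLA-C -0.49 to 0.48. After removal of the GC trend HLA-E stood higher without overlap, 1 of 9 against 25.4% of tested genes, and B2M lower, 1 of 9 against 27.6%, while HLA-F overlapped. With the GC trend removed 0 of 9 passed by edgeR at 24 h, against 10.7% of tested genes, and HLA-B, HLA-E and TAPBP each passed in 1 of 8 fits that also left out a library, a DMSO 24 h one each time (replicate 1 for HLA-B and replicate 2 for HLA-E and TAPBP, adjusted p 0.0379 to 0.0452). In the authors' deposited table the lowest unadjusted p of the 9 at 24 h was 0.702, for TAP1.

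The difference between the JIB-04 effects at 48 h and 24 h, which equals the difference between the time effects of the treatments, passed for 0 of 9 by edgeR, against 0% of tested genes, and 0 had an unadjusted p under 0.05, against 5.23%. HLA-F had 1.27 (interval -0.29 to 2.83), or 0.76 without DMSO 48 h replicate 1 and 2.10 without DMSO 48 h replicate 2. The difference was 0.44 for HLA-C (-0.24 to 1.13), 0.12 for B2M (-0.33 to 0.56) and 0.10 for HLA-B (-0.33 to 0.53). With the GC trend removed 0 of 9 passed as well, against 1.1%, and B2M had 0.25 ± 0.07 (adjusted p = 0.149). A time effect particular to either treatment was therefore not shown for any member. DESeq2 and limma-voom also called 0 of 9 for this difference. Averaged over both times, a contrast chosen after seeing the data, 0 of 9 passed by edgeR, DESeq2 or limma-voom, against 1.08% of tested genes by edgeR, and 0 had an unadjusted p under 0.05, against 14.6%. Nor did any of the 9 pass by edgeR after removal of the GC trend, against 17.8%. In that fit 1 of 9 had an unadjusted p under 0.05, HLA-E, against 4995 of 15248 tested genes.

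**Figure D5:**
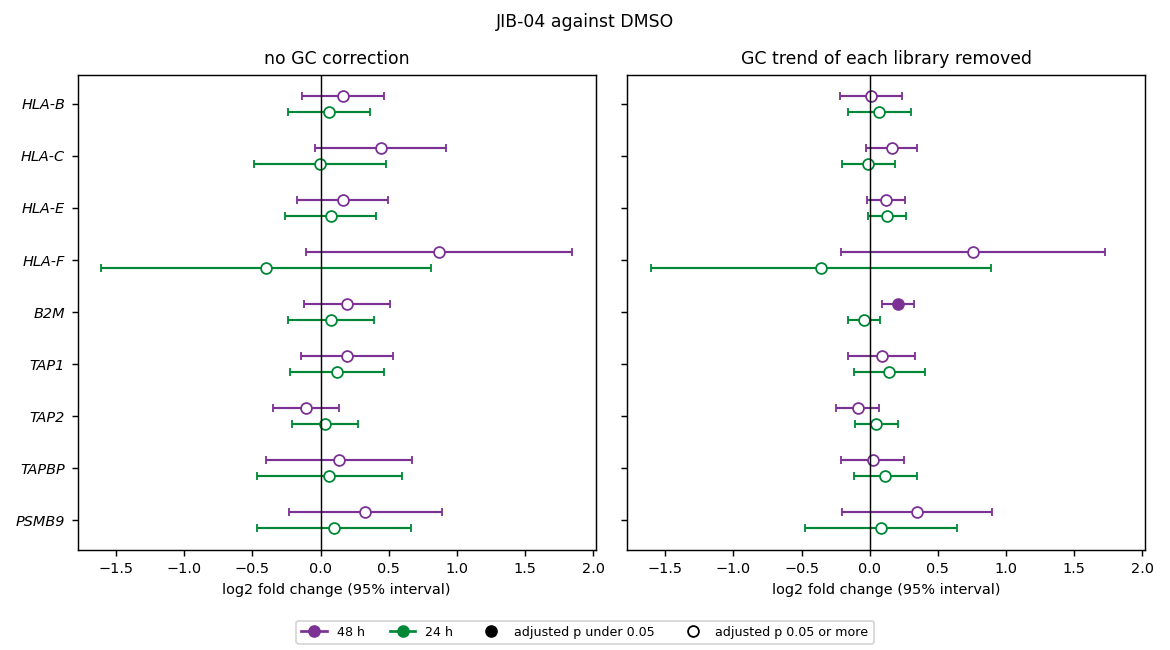
Log2 fold change of JIB-04 against DMSO for the 9 genes, with 95% intervals, at 48 h (upper of each pair) and 24 h (lower), without a GC correction on the left and with the GC trend removed on the right. Filled points have an adjusted p under 0.05, which holds for B2M at 48 h on the right.

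The rest of the pathway was read from 8 lists holding 96 genes, of which 81 were in both tables and 73 passed the filter. Averaged over both treatments, 4 of the 73 rose at 48 h and 0 fell by edgeR, against 0.938% and 0.446% of tested genes. Their median log2 change was -0.01, against 0.42 for the 9 members and 0.00 for all tested genes. STAT2 and IRF9, transcription factors that act downstream of type I interferons, were among them. By edgeR 0 genes passed in this fit among the 12 genes of peptide loading and trimming, the 6 of the immunoproteasome and its activator and the 20 transcriptional regulators.

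IRF9, which binds STAT2, had 35.1 and 32.7 CPM in JIB-04 libraries at 48 h, against 21.9 and 18.2 CPM in JIB-04 libraries at 24 h, and 32.6 and 30.9 CPM in DMSO libraries at 48 h, against 18.3 and 18.9 CPM at 24 h. Averaged over both treatments it rose by 0.76 ± 0.10 (adjusted p = 0.0123) and STAT2 by 0.55 ± 0.085 (adjusted p = 0.0238), and the IRF9 libraries of 48 h all stood above those of 24 h. With a library left out IRF9 was lost without any 48 h library (highest adjusted p 0.122) and STAT2 without any but a DMSO 24 h library (0.203). In the GC-corrected fit both rose in 8 of 8 such averaged fits.

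NLRC5, the class I transactivator, did not follow them. It had 46.2 and 37.6 CPM in JIB-04 libraries at 48 h, 42.9 and 38.4 CPM in DMSO libraries at 48 h, 51.6 and 37.2 CPM in JIB-04 libraries at 24 h and 36.6 and 49.5 CPM in DMSO libraries at 24 h. All 4 groups overlapped, and its averaged log2 change over time was -0.08 ± 0.15 (interval -0.42 to 0.25). Whether STAT2, IRF9 or NLRC5 bears on the members was not tested.

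Corrected for GC, 13 of the 73 rose and 8 fell at 48 h averaged over both treatments, against 8.26% and 9.98% of tested genes. Those that fell included POMP, 1 of 6 genes of the immunoproteasome and its activator, and PSMB5, 1 of 3 constitutive catalytic subunits. PSMB8, the immunoproteasome subunit encoded beside TAP1, rose by 0.32 ± 0.04 (adjusted p = 0.00115), CD74, the class II invariant chain, by 0.49 ± 0.05 (adjusted p = 0.000312) and IRF7, an interferon regulatory factor, by 1.09 ± 0.12 (adjusted p = 0.000378). CALR, the chaperone calreticulin of the loading complex, fell by 0.43 on the log2 scale (adjusted p = 0.000583). These 4 passed in 8 of 8 averaged fits with a library left out. Among 12 genes of loading and trimming, CANX, another chaperone, rose (0.12 ± 0.03, adjusted p = 0.0392, a call kept in 1 of 8 such fits, the one without DMSO 24 h replicate 1, and otherwise lost with adjusted p 0.0686 to 0.155) and CALR fell, and 10 did not pass.

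For JIB-04 against DMSO, 0 of the 73 passed by edgeR at 48 h without a GC correction, against 0.387% of tested genes. Unadjusted p lay under 0.05 for 13, beside 9.69% of tested genes. DESeq2 called 1 and limma-voom 0, where over all genes they called 148 and 52. At 24 h 0 passed by any of the 3 tools and 7 had an unadjusted p under 0.05 by edgeR, beside 10.8% of tested genes. Once the GC trend was taken out, 9 rose and 5 fell at 48 h, against 4.43% and 3.59% of tested genes. IRF1, an activator of class I promoters, rose by 0.45 ± 0.08 (adjusted p = 0.00904), a call lost without JIB-04 48 h replicate 1 or either DMSO 48 h library (adjusted p 0.0706 to 0.0960). Of the genes encoding stress ligands of the NK receptor NKG2D, MICA rose by 0.91 ± 0.13 (adjusted p = 0.00445), MICB rose by 0.47 ± 0.10 (adjusted p = 0.0225) and ULBP1 fell by 0.90 on the log2 scale (adjusted p = 0.00382). ULBP2 (0.55 ± 0.29, adjusted p = 0.265) and ULBP3 (0.063 ± 0.36, adjusted p = 0.939) did not pass, and RAET1E was not among the genes tested. MICA was lost without DMSO 48 h replicate 2 (adjusted p = 0.0600), and MICB without JIB-04 48 h replicate 1 or either DMSO 48 h library (adjusted p 0.128 to 0.155).

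ULBP1 was the pathway gene that passed for JIB-04 without a GC correction, once both times were averaged, 1 of 73 against 1.08% of tested genes. It had 5.0 and 5.97 CPM with JIB-04 at 48 h, against 10.7 and 9.8 CPM with DMSO at 48 h, and 4.19 and 4.62 CPM with JIB-04 at 24 h, against 6.24 and 6.07 CPM with DMSO at 24 h. The libraries did not overlap within either time. It fell by 0.69 on the log2 scale (SE 0.12, adjusted p = 0.0417), a call lost without any library but DMSO 24 h replicate 2 (highest adjusted p 0.266).

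By Pearson's r with the mean of the standardised members over the 8 libraries, a description with no test over points that share libraries and GC effects, the genes most like the members were RAB26 (0.990), TMEM120A (0.968), CECR2 (0.967), ZNF34 (0.966) and AGPAT4 (0.965) on log2 CPM. After the GC correction they were MRPS30 (0.993), RPS21 (0.985), CHST15 (0.979), EIF3G (0.974) and GAS5 (0.974). These lists of 5 have no gene in common.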

How the data were processed

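RNA of 8 libraries was sequenced from AML-OCI3 cells with a TruSeq stranded mRNA kit, per the labels' protocols. The submitters' processing notes name cutadapt, STAR 2.6.1, RSEM and hg38. The authors deposited, per the file headers, expected counts (estimated counts, rounded here to whole numbers before testing), TPM, and a comparison table with log2 fold changes and p-values. Tables of 24 h and 48 h were joined by gene, so that TPM levels set across them come from separate tables. All 8 libraries entered one fit of edgeR's quasi-likelihood test (edgeR 4.0.16, R 4.3.3) with TMM scaling and filterByExpr (minimum count 10, total 15), leaving 15248 of 24077 genes, with two-sided p-values adjusted by Benjamini-Hochberg over all of them and called under 0.05. DESeq2 1.42.0 and limma 3.58.1 were alternatives. In a further fit each library's spline of log2 CPM on gene GC content was removed as an offset. Scripts were tested on simulated counts. The pathway genes named are those that passed in a comparison and a set list of key subunits and regulators. The members and lists were chosen with earlier results of these data known. Results for some pathway genes are not reported here.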

Additional observations from a re-analysis of the deposited data

How the results depend on the processing

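Counts of members past an adjusted p of 0.05, by edgeR unless another tool is named, depended most on the GC correction. With the GC trend removed they were 1 for JIB-04 against DMSO at 48 h, 5 for 48 h against 24 h in DMSO cultures, 6 in JIB-04 cultures and 6 averaged over both treatments. Over all tested genes the shares called in that fit were 8.01%, 13.6%, 6.87% and 18.2%. DESeq2 gave 1, 1 and 3 members for those 3 time comparisons, where over all genes it called 227, 101 and 430. Replicate numbers were not taken to pair the samples, since the correlation of replicate differences between groups lay between -0.81 and 0.921, and after removal of the GC trend between -0.443 and 0.642. It was highest between JIB-04 at 48 h and JIB-04 at 24 h in both. A replicate block together with the GC correction gave 5, 5 and 6 for the time comparisons, beside 1782, 820 and 2509 of 15248 tested genes. For JIB-04 at 48 h it gave 0, beside 979 of 15248. TAP1 in JIB-04 cultures and B2M at 48 h were lost. The block alone changed no count of members. With the numbers of JIB-04 at 24 h crossed, in a blocked fit of the 24 h groups alone, 86 genes were higher and 30 lower at 24 h, and 0 members.

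For the 73 other pathway genes the GC correction gave 11 at 24 h, 14 at 48 h, 17 in DMSO cultures over time, 13 in JIB-04 cultures over time, 21 averaged over treatments and 22 for JIB-04 averaged over times, beside 10.7%, 8.01%, 13.6%, 6.87%, 18.2% and 17.8% of tested genes. With the replicate block added they were 10, 11, 18, 14, 17 and 17. That fit called 1333, 979, 1782, 820, 2509 and 2467 of 15248 tested genes. The block alone gave 0 in DMSO cultures, 2 averaged over treatments and 0 for JIB-04 averaged over times. Over all genes it called 2, 82 and 38 there. DESeq2 gave 1 at 48 h, 3 in DMSO cultures, 3 in JIB-04 cultures, 7 averaged over treatments and 2 for JIB-04 averaged over times. Its calls over all genes were 148, 227, 101, 430 and 311. Without a filter 1 passed at 48 h and 2 in DMSO cultures, beside 87 and 113 over all genes. With the compared groups alone 6 and 0 passed, beside 496 and 0.

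Small effects changed sign. HLA-C at 24 h was 0.0189 by limma-voom, 0.000661 without a filter, 0.00307 with the replicate block and 0.0101 with the compared groups alone. With the GC trend removed, and again with the replicate block added, B2M at 24 h was -0.043 and -0.0424, and the difference of JIB-04 effects was -0.0593 and -0.0628 for HLA-B, -0.00597 and -0.00771 for HLA-E, -0.0566 and -0.056 for TAP1 and -0.0932 and -0.0996 for TAPBP. The cause was not tested.

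Leaving out each library in turn, with or without the GC trend, gave 0 to 7 members averaged over treatments, 0 to 5 in DMSO cultures, 0 to 7 in JIB-04 cultures, 0 to 2 at 24 h, 0 to 1 at 48 h and 0 to 2 for JIB-04 averaged over times. Pathway genes ranged over 0 to 22, 0 to 19, 0 to 15, 0 to 7, 0 to 16 and 0 to 23 in that order, and 0 to 1 for the difference. Without the GC correction, log2 changes that crossed 0 at 24 h were B2M -0.0872 to 0.23, HLA-B -0.0677 to 0.19, HLA-C -0.26 to 0.32, HLA-E -0.0956 to 0.27, PSMB9 -0.13 to 0.32, TAP1 -0.0343 to 0.26, TAP2 -0.0208 to 0.0855 and TAPBP -0.25 to 0.47. In the difference they were B2M -0.0381 to 0.28, HLA-B -0.0251 to 0.23, HLA-E -0.11 to 0.25, PSMB9 -0.0571 to 0.48, TAP1 -0.069 to 0.23 and TAPBP -0.34 to 0.38. In DMSO cultures over time they were HLA-C -0.00408 to 0.58, HLA-F -0.0776 to 1.27, PSMB9 -0.0983 to 0.31 and TAPBP -0.53 to 0.19. At 48 h they were PSMB9 -0.00212 to 0.58 and TAPBP -0.0323 to 0.27. TAPBP ranged over -0.34 to 0.0179 averaged over treatments, -0.32 to 0.0445 in JIB-04 cultures over time and -0.0567 to 0.30 for JIB-04 averaged over times, where HLA-F ranged over -0.0174 to 0.66. A lone remaining library is assumed to vary like the others. The number of calls over all tested genes also moved with the library left out, with and without the GC trend. The ranges of called members and pathway genes therefore do not show a change particular to those genes. HLA-F rests on 8 to 36 counts a library.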
